A study of Saccharomyces cerevisiae with 6 samples.

Results

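The genes described here make and break down trehalose and glycogen, the storage carbohydrates of budding yeast (Saccharomyces cerevisiae), or belong to the general stress response that is switched on together with them. They were taken as a named list of 36 genes: 17 of carbohydrate storage, 5 of its breakdown, 10 stress genes known as targets of the activators Msn2 and Msn4, and 4 stress regulators. A spot for 35 of them was named among the 5379 genes of the array, and 34 had a value on all 3 arrays and were tested with 4312 genes in all. The regulator gene RIM15 had no spot named for it, and the spot of GSY2, a glycogen synthase gene, held no value in any scan.

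Strain S288C in rich medium with 2% glucose at 25 °C was exposed during exponential growth to 12.6 µM zinc pyrithione, an antimicrobial zinc complex, for 2 h. Control cultures of the same strain grew for the same 2 h without treatment. Treated messenger RNA carried Cy5 and untreated messenger RNA Cy3 on 2-colour arrays, with 3 arrays from independent biological samples (the replicates below), each read with a high and with a low laser power. Ratios are given as log2 of treated over untreated, which is the likely direction, since the deposited values do not state it; the other way round, every "higher" and "lower" would be exchanged. The labels mention no array with exchanged dyes, so dye and treatment cannot be told apart, and because the compound came in dimethyl sulfoxide and no solvent control is named, compound and solvent cannot be told apart either. High-power scans held 4693 to 5737 spot values and low-power scans 1789 to 3372.

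Trehalose is a disaccharide that protects proteins and membranes under stress, and glycogen is a branched glucose polymer laid down when sugar is plentiful or growth slows. Both are built from glucose 6-phosphate by way of UDP-glucose, and both are made and degraded at once, so that their amount depends on enzymes that are also controlled by phosphorylation. Many of these genes carry stress response elements in their promoters and are bound by the zinc finger activators Msn2 and Msn4, which enter the nucleus when protein kinase A activity is low.

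Among the 34 tested genes, 4 were higher in treated cells and 2 were lower at a limma adjusted p under 0.05. The higher genes were GRE1, DDR48, TFS1 and NTH1, and the lower genes UGP1 and GIS1. Of all 4312 genes, 8.12% were higher and 9.6% lower, 17.7% in all, so that the share called among the listed genes (17.6%) lay at the background. An unadjusted p under 0.05 in limma was found for 14 of the 34 (8 positive and 6 negative). It was found for 1486 of all 4312 genes (740 positive and 746 negative). The median log2 ratio of the 34 was -0.08, against 0.03 over all genes tested, and changed sign to 0.05 in the high-power scans alone. In 19 of the 34 genes (55.9%) the sign was the same in all 3 replicates, a share close to the 54.9% of all genes. The genes are given below by role.

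**Figure D1:**
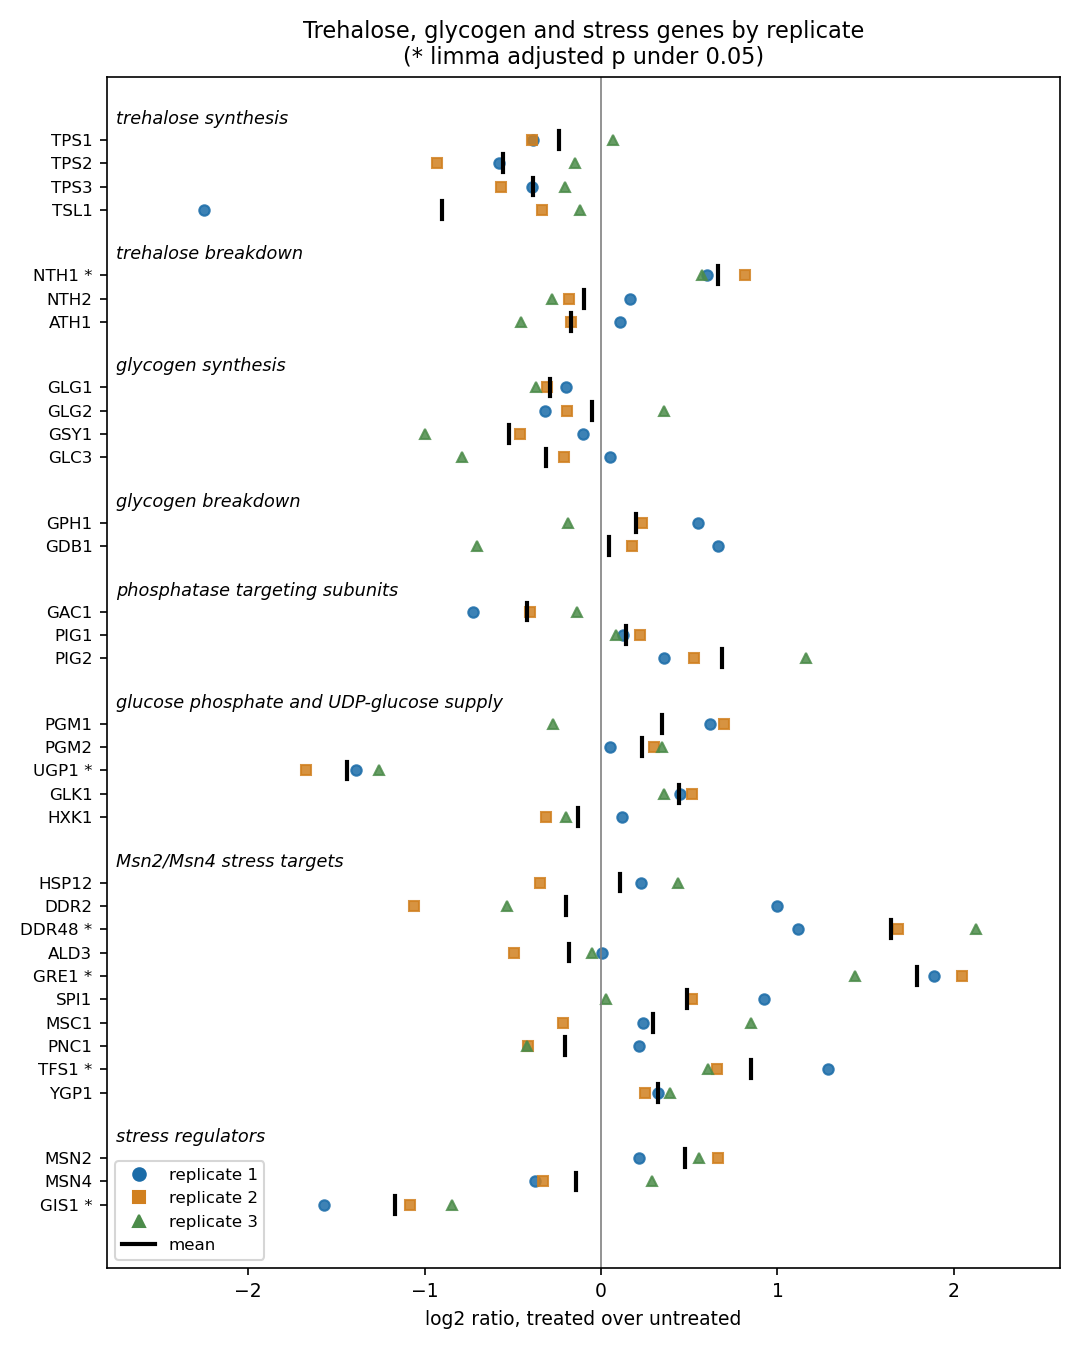
Log2 ratio of treated over untreated cells (horizontal axis) for the 34 tested genes, grouped by role; symbols are the 3 replicates, the black bar is their mean, and an asterisk marks a limma adjusted p under 0.05. GRE1 and DDR48 stand apart on the right and UGP1 and GIS1 on the left, while most other genes lie near 0 or on both sides of it.

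The 4 tested genes of the trehalose synthase complex all had negative means, and 0 of them passed the test (2 had an unadjusted p under 0.05 in limma). Over all genes 17.7% passed it, and 1486 of 4312 had an unadjusted p under 0.05 in limma. TPS1, which encodes the trehalose 6-phosphate synthase, had log2 ratios of -0.39, -0.39 and 0.07 in replicates 1, 2 and 3. In replicate 3 its high-power scan read -0.17 and its low-power scan 0.31. TPS2 encodes the phosphatase that removes the phosphate and stood at -0.58, -0.93 and -0.15. Its mean was -0.55 ± 0.39 (SD, n = 3; limma adjusted p = 0.084), and the high-power scans alone took it past the threshold at -0.60 (limma adjusted p = 0.034). The regulatory subunit genes TPS3 and TSL1 had means of -0.39 ± 0.18 and -0.90 ± 1.17 (limma adjusted p = 0.13 and 0.15). The wide spread of TSL1 came from replicate 1 at -2.25, against -0.34 and -0.12 in the others. Within that replicate its high-power scan read -1.08 and its low-power scan -3.42. Each of the 4 genes was highest in replicate 3, which was the highest replicate for 36.6% of all genes.

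Of the 3 genes of trehalose breakdown, 1 rose and 0 fell (0 also at an unadjusted p under 0.05 in limma), against 8.12% of all genes higher and 9.6% lower. At the unadjusted p, 746 of all 4312 genes were lower. NTH1, the gene of the main cytosolic trehalase, had log2 ratios of 0.60, 0.82 and 0.57, all positive and close together. It rose 1.58-fold, with a mean of 0.66 ± 0.13 (SD, n = 3; limma adjusted p = 0.026), and stood above 92.7% of the genes tested. The call ended without replicate 1 or 2 (limma adjusted p = 0.12 and 0.13) and in the low-power scans alone (0.06), while the ratio stayed between 0.59 and 0.73. NTH2, its paralog, had a mean of -0.10 ± 0.23, and ATH1, the gene of the acid trehalase that acts on external trehalose, one of -0.17 ± 0.28 (limma adjusted p = 0.7 and 0.51). Taken within each array, NTH1 exceeded NTH2 by 0.44, 1.00 and 0.85.

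None of the 4 tested genes of glycogen synthesis passed the test, where 17.7% of all genes did. An unadjusted p under 0.05 in limma was found for 1 of the 4 and for 1486 of all 4312 genes. All 4 had negative means, with a median of -0.30. GSY1, which encodes a glycogen synthase, stood at -0.10, -0.46 and -0.997, a mean of -0.52 ± 0.45 (limma adjusted p = 0.11). GLC3, the gene of the branching enzyme, stood at 0.05, -0.21 and -0.79, and had a mean of -0.31 ± 0.43 (limma adjusted p = 0.3). Both genes were lowest in replicate 3. GLG1 and GLG2 encode glycogenin, the self-glucosylating protein on which a glycogen chain starts, and had means of -0.29 ± 0.09 and -0.05 ± 0.36. The 95% interval of limma for GSY1 ran from -0.99 to -0.05 and that for GLC3 from -0.78 to 0.15, so that a decrease of almost 1 on the log2 scale lay within the error of the former.

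Neither gene of glycogen breakdown passed the test, and 0 had an unadjusted p under 0.05 in limma. Of all 4312 genes 17.7% passed the test, and 1486 had an unadjusted p under 0.05. GPH1, the glycogen phosphorylase gene, had log2 ratios of 0.55, 0.23 and -0.19, and GDB1, the debranching enzyme gene, of 0.66, 0.18 and -0.70. In both the sign differed between replicates, with replicate 1 highest and replicate 3 lowest. In replicate 3 the high-power scan of GDB1 read -0.20 and its low-power scan -1.21. With the trehalases included, replicate 3 was the lowest replicate for all 5 breakdown genes, against 36.3% of all genes. The median of these 5 genes was 0.55 in replicate 1, 0.18 in replicate 2 and -0.28 in replicate 3. Over replicates it was 0.05, against -0.26 for the 16 tested storage genes, and it turned negative when each scan was centred on its median (-0.0033) or when replicate 1 or 2 was left out (-0.23 and -0.019). Of the storage genes 11 had negative and 5 positive means. The median of the storage genes was -0.15, -0.31 and -0.14 in replicates 1, 2 and 3. Within an array, the breakdown median thus lay above the storage median in replicates 1 and 2 and below it in replicate 3. The 3 breakdown medians had an SD of 0.42.

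**Figure D2:**
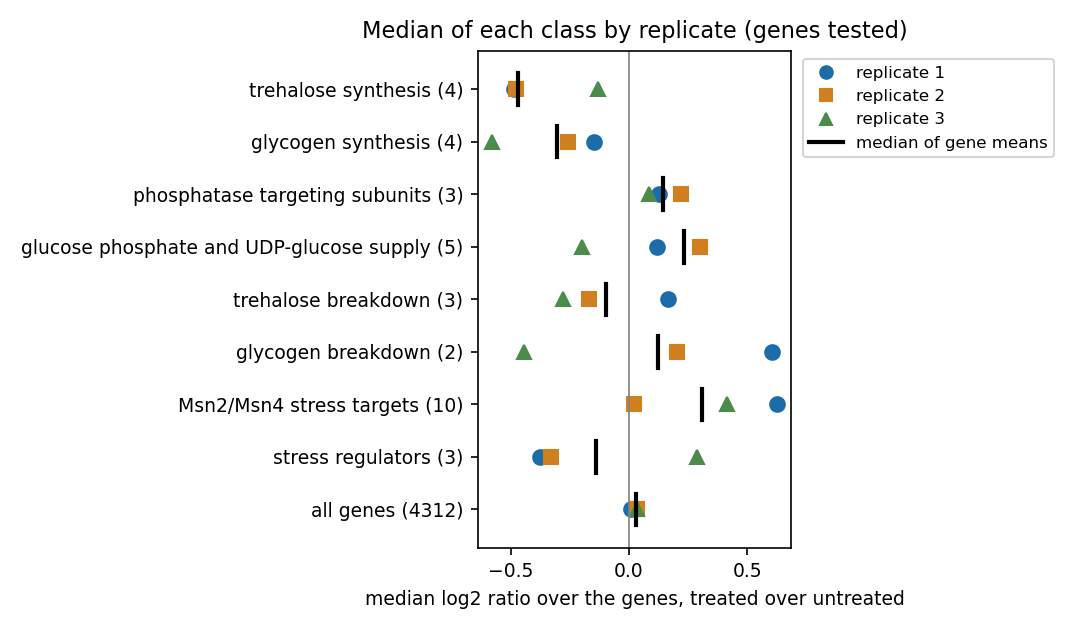
Median log2 ratio over the tested genes of each class (horizontal axis) in each of the 3 replicates, with a black bar at the median of the gene means; the number of genes is in parentheses. The medians of all 4312 genes nearly coincide (0.01 to 0.04), while those of glycogen breakdown run from 0.61 in replicate 1 to -0.44 in replicate 3. In replicate 3 the scans of GDB1 read -0.20 at high and -1.21 at low power.

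The enzymes that feed both pathways held the one storage gene past the test. Of the 16 tested storage genes 6.25% were called, against 17.7% of all genes. UGP1 encodes UDP-glucose pyrophosphorylase, which makes the UDP-glucose used for trehalose, glycogen and cell wall glucan. Its log2 ratios were -1.39, -1.67 and -1.26, negative in every replicate and narrowly spread. UGP1 fell 2.71-fold, with a mean of -1.44 ± 0.21 (SD, n = 3; limma adjusted p = 0.0014), and was the 73rd lowest of the genes tested. In replicate 3 only the low-power scan gave a value, so it was not tested in the high-power scans alone. In replicates 1 and 2 the low-power scan was the lower one, at -1.73 and -1.85 against -1.04 and -1.49. The call held in the low-power scans alone (-1.61, limma adjusted p = 0.0089) and without any 1 replicate (-1.53 to -1.32).

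The genes one step before UGP1 had positive means, none past the test. PGM1 and PGM2, which encode the minor and the major phosphoglucomutase, stood at 0.35 ± 0.54 and 0.23 ± 0.16 (limma adjusted p = 0.3 and 0.33). For PGM1, replicate 3 at -0.27 was on the other side of 0 from 0.62 and 0.70. GLK1, the glucokinase gene, was tightly spread at 0.45, 0.52 and 0.36, with a mean of 0.44 ± 0.08 (limma adjusted p = 0.084, and 0.047 in the high-power scans alone). The gene YCL042W overlaps GLK1 in the RefSeq annotation, so that a cDNA spot may not tell them apart. HXK1, a hexokinase gene, had a mean of -0.13 ± 0.22. Among 11 tested genes for other users of glucose phosphates and UDP-glucose were PGI1 (0.03 ± 0.09), PFK1 (0.21 ± 0.25) and KRE6 (-0.30 ± 0.29). Of the 11, 0 passed the test and 0 had an unadjusted p under 0.05 in limma. Of all 4312 genes 17.7% passed the test, and 1486 had an unadjusted p under 0.05.

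Glycogen synthase is activated by the phosphatase Glc7, which targeting subunits bring to it. GAC1, the gene of the main targeting subunit, had log2 ratios of -0.73, -0.40 and -0.14, and its paralog PIG1 of 0.13, 0.22 and 0.09. PIG2, the gene of a further subunit, stood at 0.36, 0.53 and 1.16, a mean of 0.68 ± 0.42 just outside the threshold (limma adjusted p = 0.052; 0.031 in the high-power scans alone). For PIG2, replicates 1 and 2 had values in the high-power scan alone. Replicate 3 read 0.79 in the high-power scan and 1.54 in the low-power scan. The 3 genes each kept one sign over the replicates, negative for GAC1 and positive for PIG1 and PIG2.

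The other regulators of the pathways were described from a list of 13 genes, all tested, of which 3 rose and 1 fell (30.8% called, against 8.12% higher and 9.6% lower, 17.7% in all, over all genes). Without replicate 1 or 2, 0 of the 13 rose. PCL8 encodes a cyclin that directs the kinase Pho85 to glycogen synthase, and stood at -1.24, -1.14 and -1.17. It fell 2.27-fold, with a mean of -1.18 ± 0.05 (limma adjusted p = 0.0027), and all its values came from high-power scans. PHO85 itself rose to 0.73 ± 0.26 (limma adjusted p = 0.026), whereas PCL10, the gene of the partner cyclin, had a mean of 0.13 ± 0.34. IGD1, which encodes an inhibitor of the debranching enzyme, rose to 0.90 ± 0.66 (limma adjusted p = 0.047), with 1.62 in replicate 1 against 0.75 and 0.33. SGA1, a glucoamylase gene of sporulating cells, rose to 0.59 ± 0.24 (limma adjusted p = 0.05, below the threshold before rounding). The calls of IGD1 and SGA1 ended when each scan was centred (limma adjusted p = 0.058 and 0.061), with quantile normalization (0.057 and 0.054) and when genes with at least 2 replicates were tested (0.054 and 0.059). That of IGD1 also ended without replicate 1 (0.54, adjusted p = 0.22) or 2 (0.97, adjusted p = 0.13), and that of SGA1 without any 1 replicate (adjusted p = 0.08 to 0.23). The call of PHO85 ended without replicate 1 or 2 (limma adjusted p = 0.14 and 0.13) and in the low-power scans alone (0.064). GLC7 had a mean of 0.06 ± 0.32 and SNF1, the gene of the glucose-regulated kinase, one of -0.27 ± 0.13.

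Of the 10 stress targets 3 rose, 7 did not pass the test and 0 fell, against 8.12% of all genes higher and 9.6% lower. At an unadjusted p under 0.05 in limma, 4 of the 10 were higher and 0 lower, against 740 and 746 of all 4312 genes. GRE1 encodes a hydrophilin, a small hydrophilic protein of osmotic stress and drying. Its log2 ratios were 1.89, 2.05 and 1.44, all from high-power scans, since the low-power scans held no value. GRE1 rose 3.46-fold, with a mean of 1.79 ± 0.31 (SD, n = 3; limma adjusted p = 0.00078), and was 33rd from the top of all genes tested. DDR48, which encodes a DNA damage-responsive protein, stood at 1.12, 1.68 and 2.12. It rose 3.12-fold, at 1.64 ± 0.50 (limma adjusted p = 0.003). TFS1 encodes an inhibitor of carboxypeptidase Y that also acts on the Ras pathway, and had log2 ratios of 1.29, 0.66 and 0.61. It rose 1.80-fold, at 0.85 ± 0.38 (limma adjusted p = 0.022), and the call ended without replicate 1 (0.63, adjusted p = 0.14) or 2 (0.95, adjusted p = 0.068) and in the low-power scans alone (0.77, adjusted p = 0.097).

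HSP12, a membrane-associated heat shock protein gene often used as a readout of Msn2 and Msn4, had log2 ratios of 0.23, -0.35 and 0.44. Its mean of 0.11 ± 0.41 was not past the threshold (limma adjusted p = 0.73), and the 95% interval of limma ran from -0.35 to 0.56. DDR2, a further classical stress target, had the widest spread of the class, at 1.00, -1.06 and -0.53. Its scans disagreed: the high-power scans read 1.05, -0.26 and 0.32, and the low-power scans 0.94, -1.86 and -1.39. SPI1, a cell wall protein gene, stood at 0.93, 0.51 and 0.03, with a mean of 0.49 ± 0.45 (limma adjusted p = 0.13; 0.03 in the high-power scans alone). YGP1, which encodes a secreted glycoprotein of nutrient limitation, was tight at 0.32 ± 0.07 without passing the test (limma adjusted p = 0.18). MSC1 (0.29 ± 0.53), ALD3 (-0.18 ± 0.27), an aldehyde dehydrogenase gene, and PNC1 (-0.21 ± 0.37), the nicotinamidase gene, each had both signs among their replicates. Replicate 2 was the lowest replicate for 5 of the 10 targets, against 32% of all genes.

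A wider list of 46 Msn2- and Msn4-dependent stress genes outside the 10 was read for comparison. Of the 43 tested, 11 rose and 7 fell, a share called of 41.9%, against 17.7% of all genes (8.12% higher and 9.6% lower). The median was 0.18, against 0.03 over all genes. The list was chosen with earlier results of these data known, so the shares were not tested against each other. In the low-power scans alone, where calls also dropped over all genes, 3 rose and 1 fell. Without 1 replicate 6 to 9 rose and 3 to 7 fell. HSP26, the small heat shock protein gene, rose to 2.32 ± 0.35, SPS100, a spore wall protein gene, to 2.30 ± 0.27 and GND2, the gene of the minor 6-phosphogluconate dehydrogenase, to 2.26 ± 0.15 (limma adjusted p = 0.00033, 0.00025 and 0.0002). CTT1, the cytosolic catalase gene, fell to -3.38 ± 0.66 (limma adjusted p = 0.00025). SIP18, the paralog of GRE1 and like it a hydrophilin gene, rose to 1.64 ± 0.21 (limma adjusted p = 0.00078), and the spots of such a pair may bind both transcripts. As for GRE1, all values of HSP26, SPS100, GND2 and SIP18 came from high-power scans, since the low-power scans held no value. HOR7, the paralog of DDR2, fell to -1.03 ± 0.30 (limma adjusted p = 0.0085). Calls in this list went both ways, and genes such as HSP26 and CTT1 differed in direction.

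The transcripts of the regulators themselves included 1 that fell and 0 that rose, of 3 tested (1 positive, MSN2, had an unadjusted p under 0.05 in limma). Over all genes 8.12% were higher and 9.6% lower. With an unadjusted p under 0.05 in limma, 740 of all 4312 genes were positive and 746 negative. GIS1 encodes a zinc finger factor and histone demethylase relative that acts on post-diauxic shift genes under the kinase Rim15. It had log2 ratios of -1.57, -1.08 and -0.85, negative in every replicate. GIS1 fell 2.24-fold, with a mean of -1.17 ± 0.37 (SD, n = 3; limma adjusted p = 0.0067), and the adjusted p lay between 0.01 and 0.049 with 1 replicate left out. MSN2 stood at 0.22, 0.66 and 0.56, a mean of 0.48 ± 0.23 (limma adjusted p = 0.085). MSN4, its stress-inducible paralog, stood at -0.38, -0.33 and 0.29, a mean of -0.14 ± 0.37 (limma adjusted p = 0.63). These are transcript ratios, and the nuclear entry of Msn2 and Msn4 was not measured.

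In the signalling upstream, 21 of 31 listed genes were tested, and 1 fell while 0 rose (3 positive and 2 negative at an unadjusted p under 0.05 in limma). PDE2 encodes the high-affinity phosphodiesterase that degrades cyclic AMP, the activator of protein kinase A, and stood at -1.08, -0.92 and -0.73. It fell 1.88-fold, at -0.91 ± 0.17 (limma adjusted p = 0.0091), and the call ended without replicate 1 or 2 (adjusted p = 0.072 and 0.053). BCY1, the regulatory subunit gene of protein kinase A, had a mean of 0.17 ± 0.24, TPK2, a catalytic subunit gene, 0.26 ± 0.14 and YAK1, the gene of a kinase that opposes growth signals, 0.07 ± 0.06. HSF1, the heat shock factor gene, stood at 0.55 ± 0.17 (limma adjusted p = 0.053). The share called (4.76%) lay below that of all genes (17.7%). With an unadjusted p under 0.05 in limma, 740 of all 4312 genes were positive and 746 negative.

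Paralogs within the storage and stress genes were compared by the difference of their log2 ratios within each array. Of 14 pairs listed, 13 had both genes on all arrays, and in 8 of these the difference had the same sign on all 3. On 3 arrays the exact sign-flip permutation test, two-sided, cannot give a p below 0.25 (0.41 after Benjamini-Hochberg adjustment over the 13 pairs), so no pair could pass a threshold, and sizes are given with their spread. The differences of YGP1 minus SPS100 were -1.67, -2.21 and -2.06, with a mean of -1.98 ± 0.28 (SD, n = 3). SPS100 had values in high-power scans alone, and YGP1 in all 6 scans. The differences of GIS1 minus its paralog RPH1 were -1.98, -0.98 and -1.35, with a mean of -1.44 ± 0.51. RPH1 itself had a log2 ratio of 0.27 ± 0.33. PIG2 exceeded GIP2 by 0.93 ± 0.38, NTH1 exceeded NTH2 by 0.76 ± 0.29, and MSN2 exceeded MSN4 by 0.62 ± 0.36. For PIG2, only replicate 3 had a low-power value, at 1.54 against 0.79 in its high-power scan.

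In GAC1 and PIG1 (-0.57 ± 0.32), ALD3 and ALD2 (-0.29 ± 0.11) and DDR2 and HOR7 (0.83 ± 0.80) the sign also held on all arrays. The difference between TPS3 and TSL1 (0.51 ± 1.17) rested on replicate 1. Those of PGM1 and PGM2 (0.12 ± 0.64), GLG1 and GLG2 (-0.24 ± 0.44), HXK1 and HXK2 (-0.34 ± 0.62) and GLK1 and EMI2 (0.25 ± 0.37) were smaller than their spread. Where paralogs are close in sequence, as ALD2 and ALD3 are, a cDNA spot may bind both, and how much it did was not tested.

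**Figure D3:**
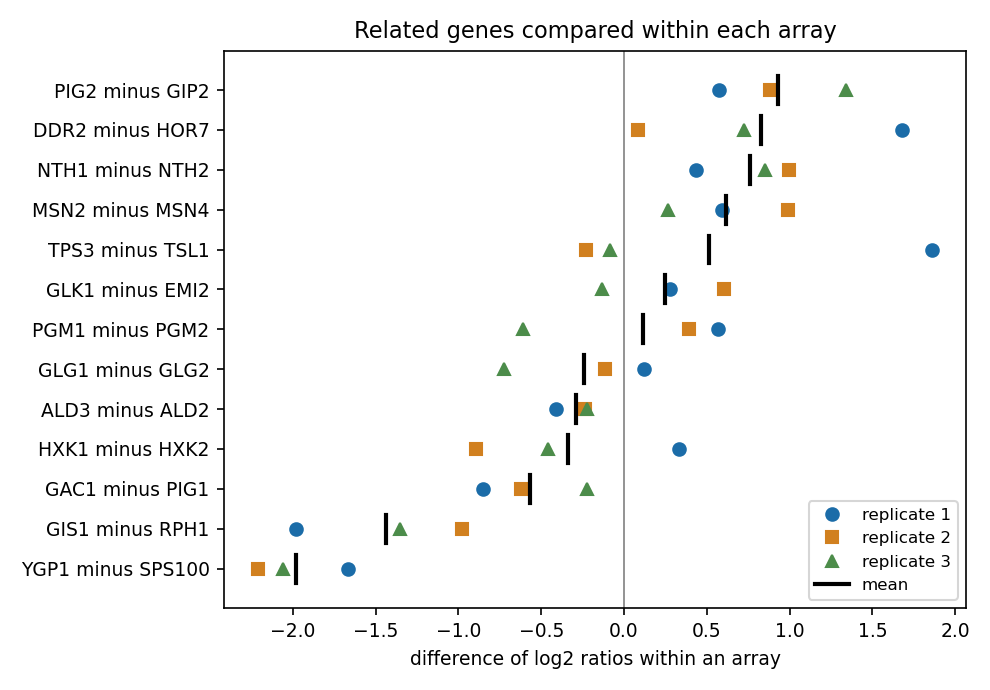
Difference of the log2 ratios of related genes within each array (horizontal axis), first gene minus second, for 13 pairs; symbols are the 3 replicates and the black bar is their mean. YGP1 and GIS1 lie left of 0 against their paralogs on every array, and PIG2, DDR2, NTH1 and MSN2 right of it.

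The genes next to those that passed the test were read from the gene order of the RefSeq annotation, a comparison chosen after the values were known. Of 12 immediate neighbours of the 6 genes, 8 were tested, and 4 rose while 0 fell at a limma adjusted p under 0.05, where 8.12% of all genes were higher and 9.6% lower. All 4 flank the stress targets, to which most of the tested neighbours belonged. PAI3 (1.34 ± 0.26, limma adjusted p = 0.0025), a proteinase inhibitor gene, adjoins DDR48, and SIP18 follows it in the same row. PAI3 and SIP18 also belong to the wider list of stress genes above, and both had values in high-power scans alone. MMT2 (0.83 ± 0.15), a mitochondrial metal transporter gene, and FMP40 (0.63 ± 0.13) lie on either side of GRE1 (limma adjusted p = 0.012 and 0.032), and YLR179C (1.16 ± 0.08, limma adjusted p = 0.003), whose product resembles that of TFS1, adjoins TFS1. Whether the spots of YLR179C and TFS1 bind both transcripts was not tested. On the other sides of DDR48 and TFS1, HOT1 (0.58 ± 0.90) and YLR177W (-0.44 ± 0.27) did not pass the test. For NTH1 and UGP1 the tested immediate neighbours, YRB1 (-0.67 ± 0.45) and TUL1 (0.06 ± 0.49), did not pass the test, and neither neighbour of GIS1 was tested.

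Spots of the listed genes were more often measured in both scans than spots at large, and their scans were compared for that reason. A value in all 6 scans was present for 22 of the 35 genes (62.9%), against 25.5% of all genes. Over the 84 array values with both scans, the median absolute difference was 0.20, against 0.21 for all genes. It exceeded 1 on the log2 scale in 4 of the 84 (4.76%), against 2.43% of all such values. These 4 were TSL1 in replicate 1, DDR2 in replicates 2 and 3 and GDB1 in replicate 3, and in each the low-power scan was the lower one. The sign differed between the scans of an array in 7 of the 84 (8.33%), against 19.5% of all such values. Of these 7, 6 were in replicate 3, where they made up 20% of the values of the listed genes, against 22.1% for all genes. The median SD between replicates was 0.36 for the 34 tested genes and 0.27 for all genes tested.

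**Figure D4:**
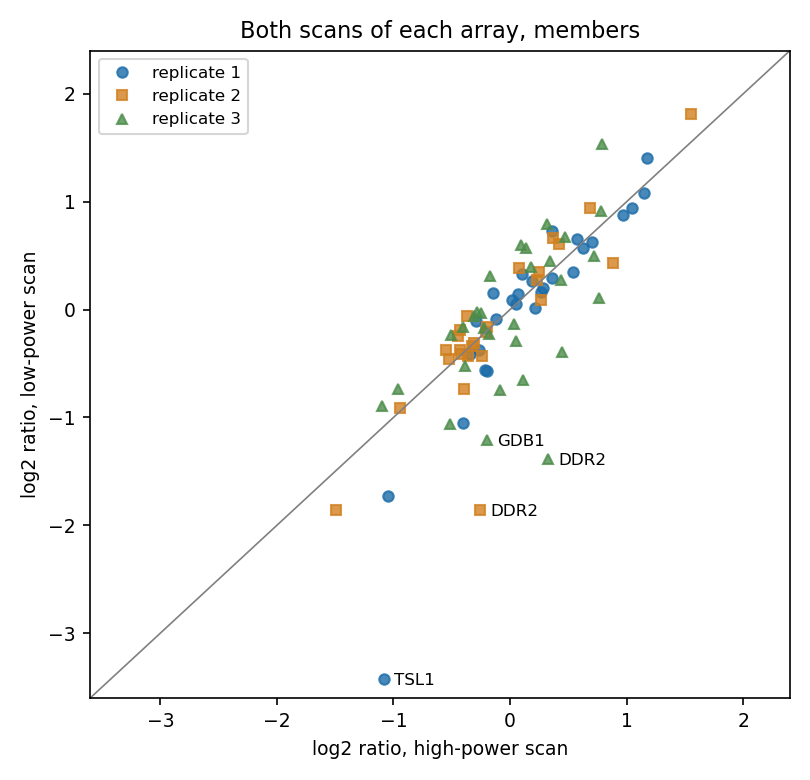
Log2 ratio of the listed genes in the high-power scan (horizontal axis) and in the low-power scan (vertical axis) of the same array, with the line of equality; symbols are the 3 replicates. Most of the 84 points follow the line, and the 4 that differ by over 1 are named and lie below it.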

How the data were processed

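The authors deposited 1 log2 ratio per spot and scan, normalized by LOWESS over spots without a quality flag, per the labels; base 2 was read from the lowest value (-6.64, a ratio of 0.01), and the direction is not stated. Scan medians lay between 0.0186 and 0.0817. Spot intensities were not analysed here, so signal over background is unknown. The platform annotation gave a single gene for 5446 spots, several for 0 and none for 1466, and all 5446 matched RefSeq (assembly R64), used for names and gene order alone. There were 0 unused sample columns.

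Spots of a gene were averaged within a scan, and scans within an array. For the 4312 genes measured in every replicate, the mean ratio was tested against 0 with limma 3.58.1 (R 4.3.3) and Benjamini-Hochberg adjustment over all of them, at an adjusted p of 0.05. The procedure was tested on simulated data, with independent normal noise of the SD that limma estimated for each gene. Changes of 0.5, 1 and 2 on the log2 scale were given to 67, 67 and 66 of the 4312 genes. The procedure recovered 23.9% of changes of 0.5, 92.5% of 1 and 100% of 2, and 4% of its 150 calls were false. In the data 764 genes were called, so these shares may not hold there. Changes near 0.5 were thus mostly missed in the simulation, and the smallest called mean in the data was 0.54 in size. The members and lists were chosen with earlier results of these data known, so lists are described by counts and medians. All listed genes, their paralogs, and up to 4 genes past the threshold from each further list were to be named; SIP18, HOR7 and neighbouring genes, and unchanged examples of the further lists, were chosen after their values were seen. Alternatives were each scan power alone, genes with both scans or at least 2 replicates, centred scans, quantile normalization, robust eBayes, treat against 1.5-fold, an adjusted p under 0.01, and each replicate left out. Figures were drawn with matplotlib 3.10.9. The number of arrays limits the precision.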

Additional observations from a re-analysis of the deposited data

How the results depend on the processing

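Counts of genes called depended on the setting. Listed genes higher numbered 4, and 7 in the high-power scans alone, 0 in the low-power scans alone, and 2 each with both scans required, with treat against 1.5-fold and at an adjusted p under 0.01; without 1 replicate they numbered 2 to 4. Listed genes lower numbered 2, and 1 in the low-power scans alone, 0 with both scans required and 1 with treat; without 1 replicate they numbered 2 to 3. UGP1, GRE1, DDR48 and GIS1 each lacked values for at least 1 scan and so were not tested where both scans were required. Over all genes, higher and lower calls numbered 350 and 414, and 515 and 570 in the high-power scans, 74 and 77 in the low-power scans, 175 and 182 with both scans, 65 and 77 with treat, 132 and 163 at 0.01, and 132 to 297 and 176 to 337 without 1 replicate. GRE1 and DDR48 kept their calls in every setting that tested them, as did UGP1; GIS1 lost its call with treat alone (adjusted p = 0.16). In the low-power scans and with both scans required, only NTH1 was left of the trehalose breakdown genes and only GAC1 of the targeting subunits. The class medians there were thus values of single genes. They were 0.73 and 0.66 against -0.10 for trehalose breakdown, and -0.48 and -0.42 against 0.14 for the targeting subunits. The median of storage genes moved from -0.26 to -0.40 in the low-power scans, where fewer of them were tested. Centring each scan moved the median of all genes from 0.03 to -0.02.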
